A study of Mus musculus with 2 samples.

Results

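Atoh7 and 9 further transcription factor genes of retinal ganglion cells were examined: Pou4f1, Pou4f2, Pou4f3, Isl1, Isl2, Ebf1, Ebf3, Eomes and Irx2. All probe sets were taken whose platform annotation gave 1 of these symbols and no other. That gave 19 of 45037 probe sets and 9 of the 10 genes, out of 18193 genes with a probe set of their own. No probe set was annotated to Pou4f2 alone in the table used here, so Pou4f2 was not analysed here. The genes were chosen by their part in the ganglion cell programme with the log2 ratios between these same arrays already known, so every value below is a description.

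The study measured RNA of 1 retina of a Sox11-/- embryo and 1 retina of a wild-type littermate, both C57BL/6 and both at embryonic day 18, on 1 Affymetrix mouse array each. Sox11 is a SoxC family transcription factor; what was deleted, and in which cells, is not stated in the labels. With 1 array per genotype there was no spread between animals and no test, and a difference between genotypes and one between 2 individual embryos cannot be told apart. The embryos also differed in Xist, the RNA of the inactive X chromosome, which read 922.7 in the knockout and 12.3 in the wild type, so genotype and sex cannot be told apart either. In whole retina, fewer cells of a type and less RNA per cell cannot be told apart. The 2 arrays had the same scaling, with a mean intensity of 99.7 on each once the top and bottom 2% were trimmed.

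Retinal ganglion cells are the first neurons born in the retina, and their axons form the optic nerve. Atoh7 is a basic helix-loop-helix (bHLH) factor that progenitors switch on transiently around their last division and that most ganglion cells need in order to form. Downstream of it, Pou4f2 and Isl1 start the ganglion cell programme, other POU, LIM-homeodomain and EBF factors carry it into maturation, and Eomes marks a subset that includes melanopsin cells. In mouse, loss of Sox4 and Sox11 together is known to deplete ganglion cells.

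The proximal promoters are shown for Atoh7, Isl2 and Ebf3, whose ratios were the largest among the genes that were higher on the knockout array, and for Eomes, which was lower. Each sequence is the 250 bases before the annotated start, on the strand of the gene, from RefSeq (build GRCm38.p6). They lie at chr10:63099535-63099784 on the plus strand for Atoh7, chr9:55540899-55541148 on the plus strand for Isl2, chr7:137314446-137314695 on the minus strand for Ebf3 and chr9:118477939-118478188 on the plus strand for Eomes. Capitals mark matches, on both strands, to CANNTG (the E-box of bHLH factors), ACAAT (a core bound by SOX factors), ACAAAG (another such core), ATTAAT (a POU4F core), TAATTA (a homeodomain core), CCCNNGGG (a core of EBF sites) and TATAAA (the core promoter box).
Atoh7: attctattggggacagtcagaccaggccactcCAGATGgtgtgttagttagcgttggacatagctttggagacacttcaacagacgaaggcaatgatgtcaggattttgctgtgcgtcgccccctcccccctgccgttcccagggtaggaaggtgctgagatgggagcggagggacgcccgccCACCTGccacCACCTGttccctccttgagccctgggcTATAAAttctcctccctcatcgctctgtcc
Isl2: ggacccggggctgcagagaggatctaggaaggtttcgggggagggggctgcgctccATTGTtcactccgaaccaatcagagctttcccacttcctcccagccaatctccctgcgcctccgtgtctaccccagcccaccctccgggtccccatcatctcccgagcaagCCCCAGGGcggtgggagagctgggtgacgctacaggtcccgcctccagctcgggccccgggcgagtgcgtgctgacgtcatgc
Ebf3: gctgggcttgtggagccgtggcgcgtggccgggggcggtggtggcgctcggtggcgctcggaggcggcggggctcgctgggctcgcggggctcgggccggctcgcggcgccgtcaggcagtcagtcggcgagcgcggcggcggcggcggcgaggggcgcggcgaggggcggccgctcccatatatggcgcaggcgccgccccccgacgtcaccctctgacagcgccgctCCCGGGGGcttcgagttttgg
Eomes: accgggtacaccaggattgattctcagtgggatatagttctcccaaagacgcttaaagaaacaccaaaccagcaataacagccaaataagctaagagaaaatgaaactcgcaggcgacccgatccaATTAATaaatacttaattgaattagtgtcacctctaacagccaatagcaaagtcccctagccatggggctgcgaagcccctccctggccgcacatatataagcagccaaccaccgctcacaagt

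The Atoh7 window held 3 E-boxes, and 2 of them, 67 and 57 bases before the start, read CACCTG and lay just upstream of a TATAAA at 30 bases. In chick, the Atoh7 protein is known to act on E-boxes of its own promoter. CANNTG was found in 66.2% of 32851 promoter windows of this length, CACCTG in 17.2%, at least 2 copies of CACCTG in 2.06% and TATAAA in 12.4%. CACCTG is a form of CANNTG and was searched on its own after the sequence was read. The Isl2 window held 1 ACAAT match, 194 bases before the start (27.7% of windows), and 1 CCCNNGGG match at 83 bases (11.8%). The Ebf3 window held 1 CCCNNGGG match at 21 bases, and the Eomes window 1 ATTAAT match at 124 bases (4.39%). ACAAAG, found in 16.5% of windows, and TAATTA, in 4.84%, were in none of the 10 windows searched, which came from 9 members. Member windows on chromosome 18, where Pou4f3 lies, were left out of the search. ACAAT was in 2 of the 10 windows, CANNTG in 5. A match is a run of letters, not a measured binding site.

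Atoh7 was higher on the knockout array in both of its probe sets, by more than any other member. The probe set 1422929_s_at read 1731.0 in the knockout retina and 945.0 in the wild-type retina, 1.83-fold higher. The probe set 1450796_at read 419.2 in the knockout and 179.6 in the wild type, 2.33-fold higher. On the log2(intensity + 5) scale used for all ratios below, knockout minus wild type, these were 0.87 and 1.20. Both probe sets are annotated to the same RefSeq transcript, so they are not independent. The suffix of 1422929_s_at says that its probes can match more than 1 transcript; 1450796_at has no such suffix.

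Among 11745 probe sets that reached 109.4, the 75th percentile of all intensities, on at least 1 array, 61 (0.519%) had a ratio as large as the smaller Atoh7 value. As large as the larger one were 19 (0.162%). The 3 genes whose pair of log2 levels lay nearest to that of Atoh7 over the 2 arrays were Eif2s3x, an X-linked translation initiation factor gene (1455.8 in the knockout, 1034.2 in the wild type, distance 0.28), Aldh1a1, a retinoic acid enzyme (1854.5 in the knockout, 1153.2 in the wild type, distance 0.30), and Rdx, the gene of radixin (1503.2 in the knockout, 1113.6 in the wild type, distance 0.31). All 3 had smaller ratios than Atoh7, between 0.43 and 0.68.

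**Figure D1:**
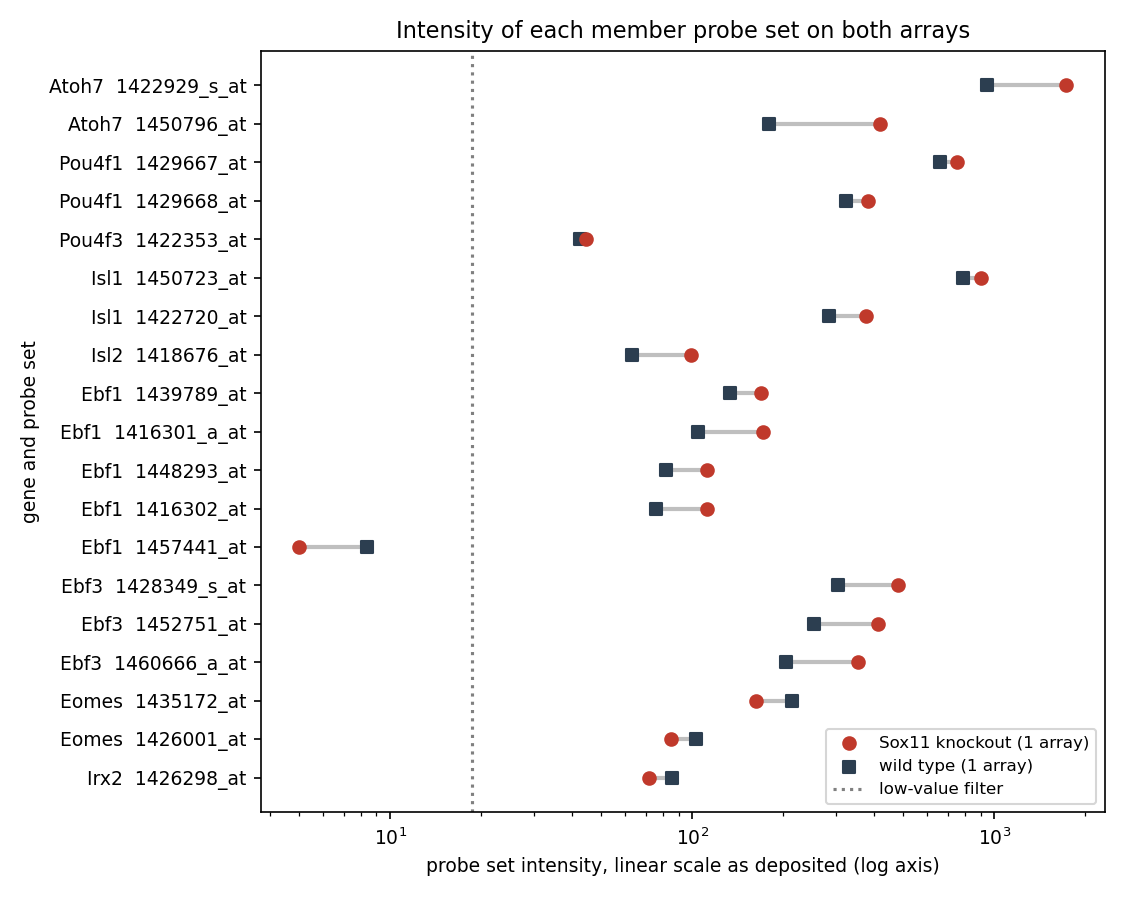
Intensity of each of the 19 member probe sets (rows) on the Sox11 knockout array (circles) and the wild-type array (squares), on a log axis. The dotted line is the low-value filter of 18.6. Both Atoh7 probe sets and all 3 Ebf3 probe sets were brighter in the knockout, while Eomes and Irx2 were dimmer; the dim Ebf1 probe set 1457441_at lay below the filter on both arrays.

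The POU4F genes encode homeodomain factors needed for ganglion cell differentiation and survival. Of these, Pou4f1 and Pou4f3 differed little between the arrays, and Pou4f2 had no probe set of its own. Pou4f1, also called Brn3a, read 751.0 in the knockout and 658.4 in the wild type with 1429667_at, a log2 ratio of 0.19. Its other probe set, 1429668_at, read 382.6 in the knockout and 321.6 in the wild type, a log2 ratio of 0.25. These are 1.14-fold and 1.19-fold differences, and the 2 probe sets differed from each other by 0.06. Pou4f3, which marks a smaller share of ganglion cells and is best known from hair cells of the ear, was dim with 1422353_at, at 44.6 in the knockout and 42.5 in the wild type, and its log2 ratio of 0.06 was -0.05 after quantile normalization and -0.03 after loess.

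Of the LIM-homeodomain genes, Isl1 differed about as much as Pou4f1 by its brightest probe set, and Isl2 had a larger ratio. Isl1, which works together with Pou4f2 and is also made in starburst amacrine and bipolar cells, read 901.5 in the knockout and 785.1 in the wild type with 1450723_at. Its second probe set, 1422720_at, read 375.1 in the knockout and 282.7 in the wild type. The log2 ratios were 0.20 and 0.40. Isl2, which marks ganglion cells that send their axons across the midline, read 98.7 in the knockout and 63.0 in the wild type with its only probe set, 1418676_at, a log2 ratio of 0.61 or 1.57-fold.

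The EBF genes, helix-loop-helix factors that act downstream of Pou4f2 and are also made in other retinal and non-retinal cells, were higher in every probe set past the filter. For Ebf3, the probe set 1428349_s_at read 479.1 in the knockout and 304.2 in the wild type. The probe set 1452751_at read 410.6 in the knockout and 252.2 in the wild type, and 1460666_a_at read 354.5 in the knockout and 203.5 in the wild type. The 3 log2 ratios lay close together, at 0.65, 0.69 and 0.79. For Ebf1, 4 probe sets gave log2 ratios between 0.33 and 0.69. The brightest, 1439789_at, read 168.4 in the knockout and 133.4 in the wild type, and the one furthest apart, 1416301_a_at, read 171.9 in the knockout and 104.5 in the wild type. Between them, 1448293_at read 112.0 in the knockout and 82.0 in the wild type, and 1416302_at read 111.4 in the knockout and 76.0 in the wild type. The fifth, 1457441_at, read 5.0 in the knockout and 8.4 in the wild type, below the filter on both arrays. EBF proteins resemble each other in sequence, and probe sets with an s or a suffix can match several transcripts, but both genes also had higher probe sets without such a suffix.

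Eomes and Irx2 ran the other way. Eomes, a T-box factor of a ganglion cell subset and of some other neurons, read 162.8 in the knockout and 213.1 in the wild type with 1435172_at, a log2 ratio of -0.38. Its second probe set, 1426001_at, read 85.1 in the knockout and 102.7 in the wild type, a log2 ratio of -0.26. Irx2, an Iroquois homeodomain factor of ganglion cells, read 72.1 in the knockout and 85.5 in the wild type with 1426298_at, a log2 ratio of -0.23. In all 3 probe sets the difference was within the central 95% of the ratios of all probe sets at the same level.

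Of the 19 probe sets, 18 passed the filter on low values, which asked for at least 18.6, the median of all intensities, on 1 of the arrays. All 18 were at or above 42.5 on both arrays, so none passed through 1 array alone. Higher in the knockout were 15 of the 18, against 54.8% of all 23581 probe sets past the filter, and lower were 3, against 44.9%. At 1.5-fold, a limit chosen after the data were seen, 7 of the 18 were higher (6.29% of all) and 0 lower (2.15%); the 7 belonged to 4 genes, Atoh7, Isl2, Ebf1 and Ebf3. With the s and a suffix probe sets left out, 3 were 1.5-fold higher, 1 each of Atoh7, Isl2 and Ebf3. At 2-fold, 1 was higher, the Atoh7 probe set 1450796_at (1.47% of all), and 0 were lower (0.399%). Since the genes were chosen with this contrast known and several probe sets share a gene, these shares stand beside each other without a test.

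**Figure D2:**
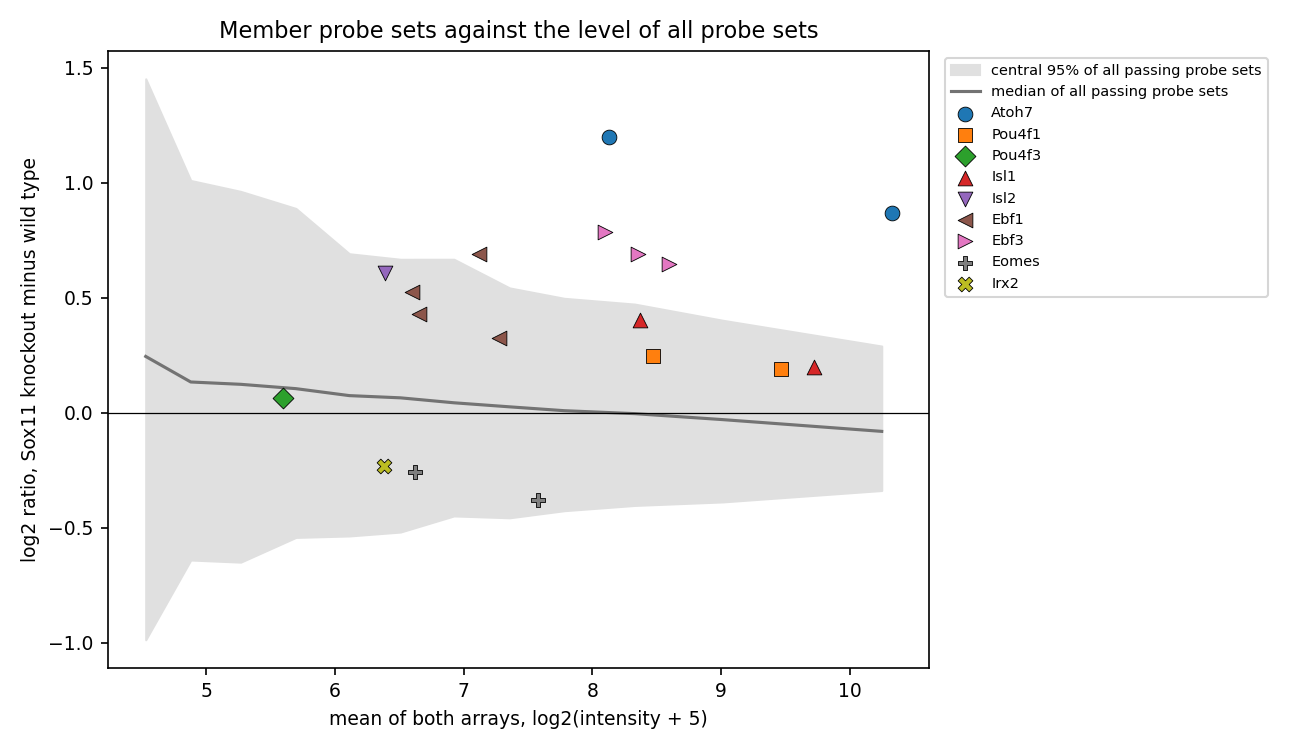
Log2 ratio (knockout minus wild type, vertical axis) against the mean log2(intensity + 5) of both arrays (horizontal axis) for the 18 member probe sets past the filter, 1 symbol per gene. The grey band holds the central 95% of all passing probe sets in 12 bins of level and the line is their median. Both Atoh7, all 3 Ebf3 and 1 of the 4 Ebf1 probe sets lie above the band, and none lies below it.

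By that band, 6 of the 18 probe sets lay above and 12 inside. At the level of 1422929_s_at the band ran from -0.34 to 0.29, and the Isl1 probe set 1450723_at, in the same bin, lay inside at 0.20. At the level of the other Atoh7 probe set and of Ebf3 it ran from -0.40 to 0.47. The band describes how far apart 2 arrays of 2 embryos were, not the spread between replicates. Isl2, at 0.61, was inside because the band at its level reached 0.67.

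The 9 genes, each by its brightest probe set past the filter, had a median log2 ratio of 0.20, and 7 were higher and 2 lower. Over all 11557 genes the median was -0.01, with 47.7% higher and 52.1% lower. Without Atoh7 the median of the other 8 was 0.19. In the 6 genes with several passing probe sets, all probe sets of a gene had the same sign. That held for 2807 of the 5612 genes with several passing probe sets over the array. The probe sets of a member differed by between 0.06 for Pou4f1 and 0.37 for Ebf1. The pooled SD between probe sets of a gene over the whole array was 0.26.

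Other ganglion cell genes were compared as lists, chosen with earlier results of these arrays known. Of 21 further ganglion cell transcription factors and cofactors past the filter, 15 were higher and 6 lower, beside 47.7% and 52.1% of all genes. Their median log2 ratio was 0.20. Furthest from 0 among the 6 lower was Lmo4, at -0.35, named after its values were seen. The homeobox genes Dlx1 and Dlx2, which act in parallel with Atoh7, read 62.2 and 47.1 in the knockout and 32.2 and 25.1 in the wild type, log2 ratios of 0.85 and 0.79. Foxp1, a forkhead factor, read 214.7 in the knockout and 130.8 in the wild type, a log2 ratio of 0.69 with its 6 probe sets between 0.47 and 1.27. Onecut1, a cut-homeodomain factor of ganglion and horizontal cells, read 27.4 in the knockout and 14.1 in the wild type. Its wild-type value was below the filter, which gives a difference of at least 1.47-fold.

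Of 21 ganglion cell markers that are not transcription factors, 20 had a probe set of their own in the annotation used, and these were above the filter on both arrays except Cntn2, which was below it in the wild type. Of the 20 genes, 15 were higher and 5 lower, beside 47.7% and 52.1% of all genes, with a median log2 ratio of 0.18. Cntn2, an axonal adhesion molecule, read 44.9 in the knockout and 16.1 in the wild type, at least 2.41-fold higher. The nicotinic receptor subunit genes Chrnb3 and Chrna3 had log2 ratios of 0.67 and 0.43. Nefm, a neurofilament subunit gene, read 908.3 in the knockout and 700.7 in the wild type, a log2 ratio of 0.37. The other neurofilament subunit genes did not follow it, with Nefl at 0.01 and Nefh at -0.33. Besides Nefh, the 5 lower genes were Shh at -0.31, Stmn2 at -0.18, Jam2 at -0.17 and Thy1 at -0.09. Nefl and the lower genes were named after their values were seen.

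Genes that act on Atoh7 or beside it were closer to level. Of 13 upstream regulators past the filter, 5 were higher and 8 lower, beside 47.7% and 52.1% of all genes. Their median log2 ratio was -0.06, with 0 at 2-fold in either direction (0.943% of all genes were 2-fold higher and 0.407% lower). Pax6, which activates Atoh7, read 2085.8 in the knockout and 2160.9 in the wild type, but its 4 probe sets ranged from -0.54 to 0.42. Neurog2, a bHLH activator of Atoh7, read 1111.2 in the knockout and 1003.8 in the wild type, and Hes1, a repressor, read 416.8 in the knockout and 434.3 in the wild type; these 3 were named for their place upstream after their values were seen. The furthest from 0 were Id3, an inhibitor of bHLH factors, at -0.36, Rest, a repressor of neuronal genes, at 0.34 with its other probe set at -0.14, the Notch target Hes5 at -0.25 and Notch1 at -0.16.

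The other retinal bHLH genes had smaller ratios than Atoh7: of 9 past the filter, 3 were higher and 6 lower, beside 47.7% and 52.1% of all genes. Their log2 ratios ran from -0.29 for Olig2 to 0.15 for Neurog2. Neurod4, which acts in amacrine and bipolar cell genesis, read 1070.9 in the knockout and 1311.2 in the wild type, a log2 ratio of -0.29, and Hes6, a factor of differentiating cells, had -0.15. No test of the difference from Atoh7 was possible with these arrays.

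Of 16 relatives of the members by gene family past the filter, 6 were higher and 10, or 62.5%, lower, beside 52.1% of all genes, with a median log2 ratio of -0.18. The family member Ebf2 read 23.0 in the knockout and 8.4 in the wild type, at least 1.24-fold higher, while Ebf4 had a log2 ratio of -0.15. The bipolar cell gene Irx5 read 170.1 in the knockout and 307.3 in the wild type, a log2 ratio of -0.83. Irx3 and Irx6 had -0.33 and -0.21 and Irx4 had 0.22; these 3 and Ebf4 were named after their values were seen. Pou3f1 was higher at 0.65, and Pou3f3 read 5.4 in the knockout and 31.1 in the wild type, at least 1.67-fold lower.

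**Figure D3:**
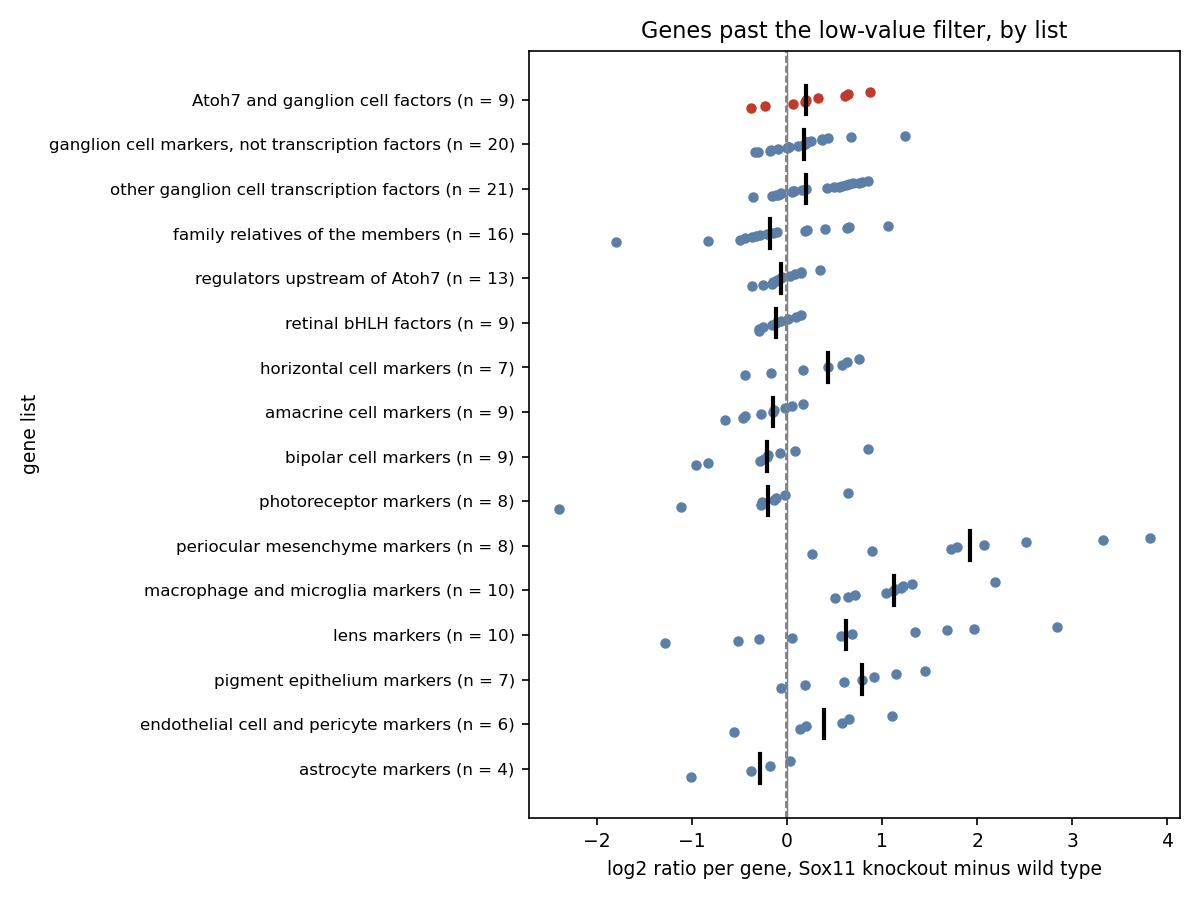
Log2 ratio of each gene past the filter (points, by its brightest probe set, knockout minus wild type) in the Atoh7 group (red) and in 15 other gene lists (blue). Black bars are list medians, the solid line is 0 and the dashed line the median of all genes. The Atoh7 group and both ganglion cell lists have medians of 0.18 to 0.20. The mesenchyme median of 1.93 rests on genes below the filter in the wild type and is 1.41 with those values set to the filter.

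SoxC genes were measured on the same arrays. The brightest Sox11 probe set read 252.4 in the knockout and 3205.7 in the wild type, a log2 ratio of -3.64, but the 6 Sox11 probe sets ranged from -3.64 to 1.08. Since the deleted part is not stated, those that were not lower check nothing. Sox4, the close relative of Sox11, read 4702.8 in the knockout and 4513.7 in the wild type, with 6 probe sets between 0.06 and 0.48. Sox12 had 0.11 and -0.04.

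Some of the members, such as Ebf1, are also made in cells outside the neural retina, and markers of such cells were read on the same arrays. Of 11 periocular mesenchyme markers 8 passed the filter, 7 of them through the knockout array alone, so their direction was set by the filter. The other, Col1a2, a collagen gene named after its values were seen, read 76.1 in the knockout and 19.6 in the wild type. The summed intensity of the 8 was 660.5 in the knockout and 92.4 in the wild type, or 149.8 in the wild type with low values set to the filter. Col3a1 and Dcn, matrix genes, read 253.2 and 133.3 in the knockout, at least 13.6-fold and 7.17-fold higher than in the wild type, where they read 13.3 and 8.8. Of 12 macrophage and microglia markers 10 passed, 3 of them through the knockout array alone. The other 7 were higher in the knockout by their brightest probe sets, beside 47.7% of all genes. In 1 of these, Laptm5, named after its values were seen, the other passing probe set had a log2 ratio of -0.25. The summed intensity of all 10 was 755.8 in the knockout and 350.5 in the wild type, or 377 in the wild type with low values set to the filter. Of 10 endothelial cell and pericyte markers 6 passed, 5 higher and 1 lower, beside 47.7% and 52.1% of all genes. Their summed intensities were 915.1 in the knockout and 1008.1 in the wild type. The endothelial gene Esam passed through the knockout array alone, at least 1.34-fold higher, and the pericyte genes Rgs5 and Pdgfrb had log2 ratios of 0.66 and 0.58. Kdr, a vascular receptor gene also made in retinal progenitors, had -0.56. No marker was at exactly 0 on both arrays. Their part in the EBF values was not tested.

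Among retinal cell types, 5 of 7 horizontal cell markers were higher, beside 47.7% of all genes. Their median log2 ratio was 0.43, which was 0.16 with the filter at 109.4 and also 0.16 with the median over probe sets. This list shares Onecut1 and Onecut2 with the ganglion cell factors, Tfap2a and Tfap2b with the amacrine list, and Lhx1 with the family relatives. The relatives also share Irx5, Irx6 and Lhx4 with the bipolar list and Pou3f1 with the ganglion cell factors. Hes1, Hes5 and Neurog2 are in both the upstream and the bHLH list, and Neurod2 is in both the bHLH list and the ganglion cell factors. The lists are therefore not independent. Lhx1, a LIM-homeodomain factor of horizontal cells, had 0.63 and Tfap2a -0.44. Over all genes 52.1% were lower. Amacrine cell markers were lower in 7 of 9, with a median of -0.15, and bipolar cell markers in 7 of 9, with a median of -0.21. Photoreceptor markers were lower in 7 of 8, with a median of -0.19. The 1 that was higher was Thrb, at 0.64. Car8, a bipolar cell gene, had a log2 ratio of -0.95, while Pcp2, of the same list, went the other way at 0.86. Gad1, which makes the transmitter GABA in amacrine cells, read 205.3 in the knockout and 325.1 in the wild type, and the rod genes Sag and Nrl read 42.8 and 289.0 in the knockout and 246.7 and 632.8 in the wild type.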

How the data were processed

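Retinal RNA of 1 Sox11-/- and 1 wild-type mouse embryo was hybridised to 1 Affymetrix array each. The authors deposited linear probe set intensities, scaled per array, as read from the values (equal trimmed means); the software is not given in the sources used here. After 64 control probe sets were left out, 45037 remained, of which 34945 had 1 gene symbol in GEO's platform annotation. The deposited intensities were turned to log2(intensity + 5), with no further normalization, and ratios are knockout minus wild type; this understates the change of dim probe sets. A probe set passed if its higher intensity reached 18.6, the pooled median; 23581 did. A gene took its brightest passing probe set. Where the dimmer array was below 18.6, the brighter value over 18.6 is the lower bound of the fold. Detection calls were not used. The 2 arrays limit the precision, and no test was made.

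By rule, all probe sets of the members were named, Sox11, Sox4 and Sox12, the 3 genes nearest to Atoh7 and, per list, at most 4 genes among those with the largest ratios; genes named outside the rule are said to be so. The members and lists were chosen with earlier results of these data known. Tools were Python 3.11.15, pandas 2.3.3 and statsmodels 0.14.6. Counting at 2-fold was run on simulated data, with noise set by hand, in probe sets well above the filter that were shifted by more than 2-fold. That checks the code and says nothing of smaller differences or of dim probe sets. Alternatives were centring, quantile normalization, loess (span 0.3), other pseudocounts and filters, leaving out probe sets with an s, x or a suffix (not specific to 1 transcript), and the median over probe sets.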

Additional observations from a re-analysis of the deposited data

How the results depend on the processing

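No paired analysis was possible because each genotype has 1 array. Over 9 alternatives, 292 values were recomputed, 282 moved by less than the limits used (0.26, the pooled SD between probe sets, or 1.5 times for counts), 10 moved by more, and no value past 2-fold changed sign. The Atoh7 probe sets stayed at 0.85 to 0.94 and 1.14 to 1.22. The median of the members ranged from 0.18 to 0.30. Of the members' 18 probe sets, only Pou4f3 changed sign among the 5 scaling and pseudocount alternatives, under quantile normalization and loess. With the filter at 109.4, 1 member probe set in place of 3 was lower, because fewer were counted, and list medians moved to 0.16 for horizontal cells, 3.57 for mesenchyme, 0.72 for macrophages and 0.026 for lens. With the probe sets of s, x or a suffix left out, 3 in place of 7 were 1.5-fold higher. With no pseudocount the mesenchyme median was 2.42; with the pseudocount at the pooled median it was 1.38 and the macrophage median 0.83. With the median over probe sets the horizontal cell median was 0.16, and that of the regulators upstream of Atoh7 was 0.01 in place of -0.06. Apart from the constructions named, the cause was not tested. The number of arrays and the lack of detection calls limit all of these.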

Other observations

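Within the members, the size of a ratio depended on which probe set was read. In Atoh7, Pou4f1, Isl1, Ebf1 and Ebf3, the brightest probe set gave the smallest ratio, and Eomes, where it gave the largest, was the exception among the 6 members with several passing probe sets. Over the array, the brightest probe set had the smallest ratio in 53.5% of 2807 genes with several passing probe sets of 1 sign, against 44% if each probe set of a gene were the smallest equally often. With each gene at the middle value of its probe sets, the median of the members was 0.30 in place of 0.20.

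Lens and pigment epithelium markers, 2 further tissues that border the retina, were mixed. Of 10 lens markers past the filter 7 were higher and 3 lower in the knockout, beside 47.7% and 52.1% of all genes. Their median log2 ratio of 0.63 was 0.026 with the filter at 109.4. The gamma crystallin gene Crygd read 60.7 in the knockout and 4.2 in the wild type, at least 3.26-fold higher, while the alpha crystallin genes Cryab and Cryaa, named after their values were seen, had log2 ratios of -1.28 and -0.52. Of 7 pigment epithelium markers past the filter, Ttr, Mlana and Tyr passed through the knockout array alone. Of the other 4, 3 were higher and 1 lower, beside 47.7% and 52.1% of all genes. The median of the 7 was 0.19 with low values set to the filter, in place of 0.79. Dct, a pigment enzyme gene, read 122.9 in the knockout and 63.0 in the wild type. Of 4 astrocyte markers past the filter 3 were lower, beside 52.1% of all genes. Their median was -0.28, or -0.14 with low values set to the filter. Of the 3, Gfap passed through the wild-type array alone, at 20.2 against 14.4 in the knockout. Pdgfra, which marks astrocyte and oligodendrocyte precursors, read 74.9 in the knockout and 156.2 in the wild type.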
